A study of Mus musculus with 2 samples.

Results

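Mesothelium is the thin epithelial sheet that covers the lung and lines the body cavities. The 8 genes described here, Wt1, Bnc1, Upk3b, Upk1b, Msln, Lrrn4, Gpm6a and Rspo1, were taken as a list of symbols known from mesothelium, and each was matched by its gene identifier to 1 of the 43346 mouse genes measured. The rule that picks them uses no measured value, although earlier results of these data were known when the list was made. The transcripts of Wt1 were followed as well, and 8 of them were measured.

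The tissue was lung of mouse embryos of strain B6NCrl at embryonic day 14.5, with no treatment or allele named in the labels. Total RNA was sequenced from 1 group with 2 libraries, numbered as biological replicates 1 and 2. Each library started from 10.0 ng of RNA above 200 nt, with spike-in RNA added, and the July collection days were 15 (replicate 1) and 17 (replicate 2). The labels call each sample pooled from males and females and also pup 1, so it is unclear how many animals each library holds. The exact binomial p-values here set the difference of 2 libraries against counting error only. They do not measure the spread between libraries or animals. With no second condition, the data give the level of each gene and how far the libraries differed. The tissue is whole lung, so a level is an average over all its cells, and fewer mesothelial cells cannot be told apart from less RNA in each.

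Mesothelial cells form from the lining of the embryonic body cavity, and in the growing lung they surround the mesenchyme and are a source of signals to it. Wt1, a zinc finger transcription factor, is a standard marker of this lining and also acts in kidney, gonad and heart surface. Its transcripts are spliced in alternative ways: 1 exon can be skipped, and a short stretch coding for lysine, threonine and serine (KTS) can be inserted between the last pair of zinc fingers. Proteins without KTS are known mainly as DNA-binding factors, and proteins with it are also known to bind RNA and to localise with splicing factors.

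The Wt1 splice choices that the transcript values below divide among are shown by their bases, because each choice rests on a short stretch of sequence. Sequences are 5′ to 3′ on the plus strand of chromosome 2 (GRCm38, the same build as mm10), joined across introns, from the GENCODE M21 transcripts. In the first pair, 30 bases of exon 9 (chr2:105169980-105170009) precede, and 30 bases of exon 10 (chr2:105172223-105172252) follow, the 9 inserted bases in capitals (chr2:105170010-105170018). These bases come from the use of a donor site further downstream at the end of exon 9.
Wt1-205, with KTS: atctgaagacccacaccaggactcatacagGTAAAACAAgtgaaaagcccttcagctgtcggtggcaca
Wt1-202, without KTS: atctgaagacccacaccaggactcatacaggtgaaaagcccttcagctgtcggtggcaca

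The other pair shows exon 5 in capitals (chr2:105144142-105144192), 51 bases that code for 17 residues, between 15 bases of exon 4 (chr2:105143148-105143162) and 15 bases of exon 6 (chr2:105163325-105163339). All printed bases are coding.
Wt1-205, exon 5 included: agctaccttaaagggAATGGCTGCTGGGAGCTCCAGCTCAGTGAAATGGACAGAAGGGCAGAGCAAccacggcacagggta
Wt1-201, exon 5 skipped: agctaccttaaagggccacggcacagggta

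Summed expected counts, which are estimated read numbers per gene, were 33601136 in replicate 1 and 34535168 in replicate 2. Spike-in RNA took 4.94% and 3.96% of them. TPM, an abundance per length scaled to the same total in each library, was 1 or more for 14843 and 14876 genes. The libraries stood apart in heart muscle RNA: the summed TPM of 12 heart muscle markers was 691 in replicate 1 and 129 in replicate 2. All 11 of these markers with a mean TPM of 1 or more were at least 2-fold lower in replicate 2, namely Myl7, Myh6, Myl4, Myl2, Tnnt2, Tnni1, Actc1, Mybpc3, Nppa, Actn2 and Csrp3. Markers of lung itself were present in both libraries, with 6 of 6 epithelial and 6 of 6 mesenchymal markers at TPM 1 or more, led by Sftpc at 2127 and 2184 TPM and Col3a1 at 1222 and 1258 TPM.

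All 8 mesothelium genes were expressed in both libraries, at TPM from 1.24 to 31.8 and with 56 to 1592 expected counts each. Upk3b was the highest, and Gpm6a, Upk1b, Rspo1, Wt1, Lrrn4, Msln and Bnc1 followed. The mean levels spanned 19.6-fold from Upk3b to Bnc1, and the median was 9.29 TPM. Summed over the 8 genes, TPM was 87.8 in replicate 1 and 79.3 in replicate 2. The genes lie on 7 chromosomes and span 5.77 to 106 kb.

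**Figure D1:**
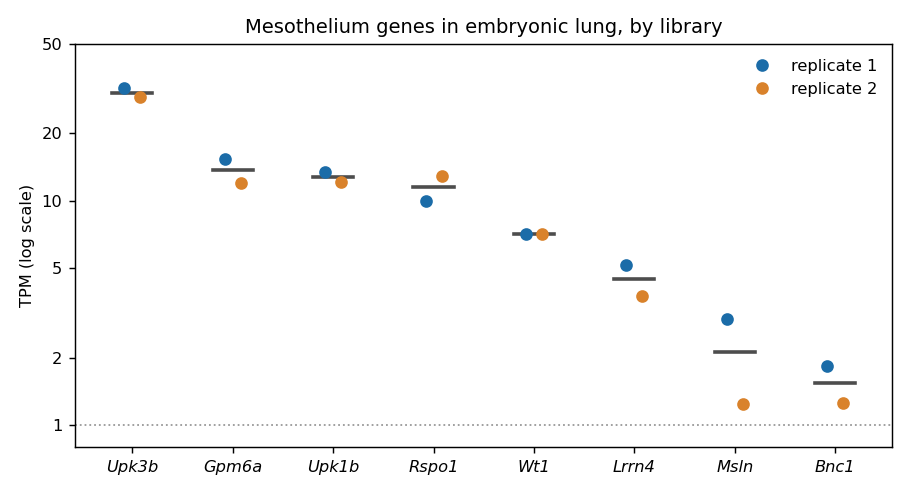
TPM on a log axis for each of the 8 genes, with 1 point per library, a bar at the mean of both (n = 2) and a dotted line at TPM 1. Upk3b stands above all others near 30.3 TPM, Wt1 has nearly the same value in both libraries, and the points of Msln lie furthest apart, at 2.98 and 1.24 TPM.

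Wt1 (ENSMUSG00000016458.9, chromosome 2 from 105126529 to 105173616, plus strand) was at 7.08 TPM in replicate 1 and at 7.13 in replicate 2, from 410 and 406 expected counts. Its mean of 7.11 ± 0.0354 TPM (SD, n = 2) placed it 9610th among 21474 protein-coding genes. The log2 ratio of replicate 2 over replicate 1 was -0.08, with a 95% counting interval from -0.28 to 0.12, and did not pass the exact binomial test (adjusted p = 0.663). Bnc1 (ENSMUSG00000025105.8, chromosome 7 from 81966672 to 81992292, minus strand) codes for basonuclin 1, a zinc finger protein also known from keratinocytes and germ cells. It was the lowest of the 8 genes by mean level, at 1.84 TPM in replicate 1 and 1.25 in replicate 2 from 187 and 127 counts. Its log2 ratio was -0.62 (95% interval -0.96 to -0.29, adjusted p = 0.00193 by the same test), a call lost under spike-in scaling (adjusted p = 0.122) and by an edgeR exact test (adjusted p = 0.781). Bnc1 shares exon sequence with a pseudogene on the other strand, 4833418N17Rik, and a strand setting for the counting was not given in the sources used here, so its counts are uncertain.

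Among the surface proteins, Upk3b (ENSMUSG00000042985.6, chromosome 5 from 136038496 to 136046487, plus strand), a uroplakin of the kind first known from the bladder lining, was at 31.8 TPM in replicate 1 and at 28.9 in replicate 2. It had the most counts of the 8, 1592 and 1452, and a mean of 30.3 ± 2.05 TPM (SD, n = 2). Its log2 ratio was -0.20 (95% interval -0.30 to -0.09, adjusted p = 0.00206 by the exact binomial test), a small difference whose sign reversed to 0.15 when the libraries were scaled to the spike-ins and which an edgeR exact test did not call (adjusted p = 1). Upk1b (ENSMUSG00000049436.4, chromosome 16 from 38773184 to 38800328, minus strand), a uroplakin of the tetraspanin family, had 13.5 and 12.1 TPM from 502 and 452 counts. Its log2 ratio of -0.21 did not pass (adjusted p = 0.0859 by the same test).

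Msln (ENSMUSG00000063011.6, chromosome 17 from 25748613 to 25754378, minus strand) codes for the precursor of mesothelin, a protein anchored to the surface of mesothelial cells. Its level was 2.98 TPM in replicate 1 and 1.24 in replicate 2, from 134 and 56 counts. The level in replicate 2 was 2.49-fold lower, with a log2 ratio of -1.31 (95% interval -1.80 to -0.86, adjusted p = 9.92e-08 by the exact binomial test). Msln was the only one of the 8 genes to differ by 2-fold or more past the test, and under spike-in scaling its difference was smaller than 2-fold at -0.97 on the log2 scale.

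Lrrn4 (ENSMUSG00000043110.2, chromosome 2 from 132868305 to 132880891, minus strand), a membrane protein with leucine-rich repeats, was at 5.18 TPM in replicate 1 and at 3.76 in replicate 2 from 418 and 304 counts. It was lower in replicate 2 by a log2 ratio of -0.52 (95% interval -0.74 to -0.31, adjusted p = 3.21e-05 by the same test). The Lrrn4 call was lost under spike-in scaling (-0.18, adjusted p = 0.122) and by the edgeR exact test (adjusted p = 0.864). Gpm6a (ENSMUSG00000031517.7, chromosome 8 from 54954843 to 55060871, plus strand), a membrane glycoprotein known mostly from neurons, had 15.4 and 12.0 TPM from 1111 and 871 counts. Its log2 ratio was -0.41 (95% interval -0.54 to -0.28, adjusted p = 1.13e-08 by the same test). The Gpm6a call too was lost under spike-in scaling (-0.07, adjusted p = 0.318) and by the edgeR exact test (adjusted p = 1). Because Gpm6a also marks neurons, the neuron list was read beside it: 3 of 6 markers reached TPM 1 in both libraries, and the summed TPM of the list was 11.9 in replicate 1 and 8.35 in replicate 2. Its highest genes were Stmn2 (5.94 and 3.74 TPM), Tubb3 (2.33 and 1.34 TPM) and Elavl4 (1.99 and 1.5 TPM). Of the 4 neuron markers tested, Stmn2 and Tubb3 were lower in replicate 2 past the exact binomial test, neither by 2-fold, beside 11.5% of all genes tested. Both also passed as lower under spike-in scaling (adjusted p = 0.0105 and 0.0479 by the same test). The edgeR exact test passed none of the 4. Snap25 went the opposite way, at 0.93 and 1.3 TPM, without passing the exact binomial test (adjusted p = 0.329). It passed that test as higher under spike-in scaling (adjusted p = 0.0109). Snap25 was named after its values were seen. The part of neuronal RNA in the Gpm6a values was not tested.

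The secreted protein of the group, Rspo1 (ENSMUSG00000028871.7, chromosome 4 from 124986430 to 125009099, plus strand), belongs to the R-spondins, which strengthen Wnt signalling. Its level was 10.0 TPM in replicate 1 and 12.9 in replicate 2, from 388 and 489 counts, and was the only one of the 8 genes that passed the test with the higher value in replicate 2; under spike-in scaling Wt1 and Upk3b did so as well. The log2 ratio was 0.27 (95% interval 0.08 to 0.47, adjusted p = 0.0293 by the exact binomial test), and the edgeR exact test did not call it (adjusted p = 1).

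Neighbours in the order of levels were compared by whether their library values overlapped. The values were apart in 4 of the 7 neighbouring pairs: Upk3b above Gpm6a, Rspo1 above Wt1, Wt1 above Lrrn4, and Lrrn4 above Msln. They overlapped in 3 pairs, so Gpm6a, Upk1b and Rspo1 could not be ordered, nor could Msln and Bnc1. The widest steps were from Upk3b to Gpm6a, at 2.21-fold between means, and from Lrrn4 to Msln, at 2.12-fold.

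Across all 14870 genes tested, 1.14% differed by 2-fold or more past the test, and 0.780% did so with the lower value in replicate 2. Of the 8 mesothelium genes 1 did, Msln. At any size of difference, 11.5% of all genes tested were lower in replicate 2 and 11.0% were higher. Among the mesothelium genes 5 of 8 were lower (Upk3b, Gpm6a, Lrrn4, Msln and Bnc1), 1 was higher (Rspo1), and Wt1 and Upk1b did not pass. The median log2 ratio was -0.31 over the 8 genes and -0.0016 over all genes tested. Scaling to the spike-ins shifted the median of all genes to 0.34, and of the 8 genes 1, Msln, was then lower past the test and 3, Rspo1, Wt1 and Upk3b, were higher. An edgeR exact test, which allows for a biological coefficient of variation of 9.58%, found 1 gene past the adjusted threshold, Msln (adjusted p = 0.0024). That variation was estimated from the same 2 libraries taken as 1 group, so the differences tested are part of it. A gene that the edgeR test did not call is therefore not shown to be equal in both libraries. Without adjustment, 4 of the 8 genes had p under 0.05 by the edgeR test.

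**Figure D2:**
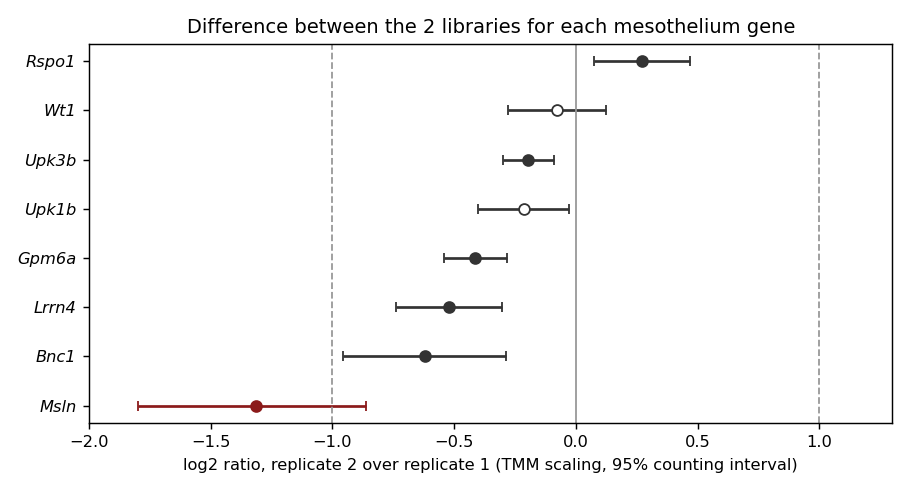
Log2 ratio of replicate 2 over replicate 1 for each gene, with 95% counting intervals. A solid line marks the median of all genes tested (-0.0016), and dashed lines mark 2-fold. Filled points passed the adjusted threshold, open points (Wt1 and Upk1b) did not, and Msln in red at -1.31 was the only one beyond 2-fold.

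Tissues that could have been carried along with the lung were read through their own markers. The heart muscle list went in the same direction as Msln, from 691 to 129 TPM summed, with a median log2 ratio of -4.00 over its 11 tested genes. Of these 11, 10 were called at 2-fold under spike-in scaling and 10 by the edgeR exact test. Of all genes tested, 0.780% were called at 2-fold as lower in replicate 2 with TMM scaling. Markers of epicardium, the mesothelium of the heart, and of related coelomic lining summed to 262 and 247 TPM. All 5 of the 5 tested were lower in replicate 2 past the test, none by 2-fold, with a median log2 ratio of -0.24. Of all genes tested, 11.5% were lower past the test. The edgeR exact test passed none of the 5. Under spike-in scaling, which moved the median of all genes tested to 0.34, none of the 5 was lower and 2 were higher. The highest of these markers, Tcf21, at 186 and 182 TPM, is also a lung mesenchyme gene, followed by Aldh1a2 and Scx. Aldh1a2 is also among the further genes known from mesothelium, and Tcf21 among the partners or targets of Wt1, both read below. The epicardium list is thus not separate from those lists. Skeletal muscle and diaphragm markers summed to 25.2 and 12.3 TPM, with Myl1, Ckm and Acta1 lower by 2-fold or more and Mylpf, the highest, at 6.26 and 8.72 TPM. Only 2 of the 4 tested, Myl1 and Ckm, were called at 2-fold under spike-in scaling, and the same 2 by the edgeR exact test. Liver markers went the other way, from 3.14 to 7.38 TPM, with Afp and Apoa1 higher by 2-fold or more. Of the 3 tested, 3 were called under spike-in scaling and 1, Afp, by the edgeR exact test. The part of carried-along tissue in the mesothelium gene values was not tested, and collection day cannot be told apart from library.

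Other tissues in which Wt1 or uroplakins are known were read in the same way. Kidney and podocyte markers were lowest, while Gata4, Grhl3 and Upk3a had mean levels above those of Msln and Bnc1. Of 6 kidney and podocyte markers none reached TPM 1 in both libraries, their summed level was 0.20 and 0.10 TPM, and Nphs1, Pax8 and Umod had no counts in either library. A count of 0 allows up to 3 counts, or 0.0939 CPM for replicate 1 and 0.0905 CPM for replicate 2, where CPM divides by each library's mouse gene total. Of 6 urothelium markers 2 reached TPM 1 in both libraries, Grhl3 (2.60 and 2.01 TPM) and Upk3a, and the list summed to 6.37 and 5.13 TPM. Gonad markers summed to 7.71 and 7.05 TPM, with 3 of 6 detected: Gata4, Inha and Star. Gata4, at 4.48 and 3.22 TPM the highest of them, is also in the epicardium and coelomic lining list.

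Most Wt1 RNA was assigned to 3 protein-coding transcripts. Wt1-205 starts at the upstream first exon and holds both exon 5 and the KTS insert. It carried 49.94% of the gene's TPM in replicate 1 and 46.51% in replicate 2, at 3.54 TPM (deposited interval 2.55 to 4.14) and 3.31 TPM (2.37 to 3.90). It was the highest Wt1 transcript in both libraries by point value, although its interval overlapped those of Wt1-202 in both and of Wt1-201 in replicate 2.

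Wt1-202 and Wt1-201 both start at an alternative first exon within intron 1 (chr2:105130883-105131152) and differ in both splice choices. Wt1-202 has exon 5 and lacks KTS, and carried 29.90% in replicate 1 and 20.67% in replicate 2. Wt1-201 lacks exon 5 and has KTS, and carried 11.35% and 22.94%. Their order was thus opposite in the libraries: Wt1-202 at 2.12 TPM (interval 1.08 to 3.10) stood above Wt1-201 at 0.80 TPM (6.29e-05 to 1.76) in replicate 1, and at 1.47 TPM (0.63 to 2.47) below 1.63 TPM (0.57 to 2.39) in replicate 2. The intervals overlapped within each library and between libraries. The Wt1-201 estimate moved from 41.1 to 84.0 expected counts, which is 1.23 times the combined posterior SD of both estimates, so no difference in Wt1-201 between the libraries was resolved. The posterior SD covers the division of reads among transcripts, not counting error or the spread between libraries.

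The 5 remaining transcripts were minor. Wt1-208 and Wt1-206, annotated as retained introns, carried 5.19% and 3.63% in replicate 1 and 3.19% and 2.40% in replicate 2. Wt1-206, whose posterior SD was small, moved from 15.5 to 10.4 expected counts, or 5.53 combined posterior SDs, with overlapping TPM intervals. The posterior SD leaves out counting error, which is large at so few counts, so no difference in Wt1-206 between the libraries was resolved. Wt1-207, which lacks exons 4 and 5, was listed at 0 and 2.68%, and Wt1-204, which lacks exon 5 and KTS, at 0 and 1.62%. Wt1-203 was listed at 0 in both libraries, with intervals reaching 0.454 and 0.707 TPM.

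**Figure D3:**
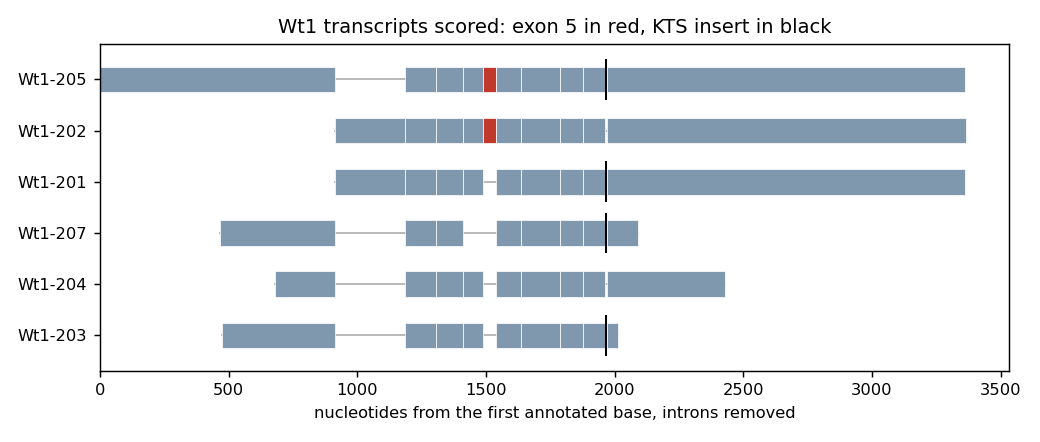
The 6 scored Wt1 transcripts in nucleotides from the first annotated base with introns removed, exons as boxes, exon 5 in red and the KTS insert as a black line. The only transcripts without KTS are Wt1-202 and Wt1-204, and the only ones with exon 5 are Wt1-205 and Wt1-202.

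**Figure D4:**
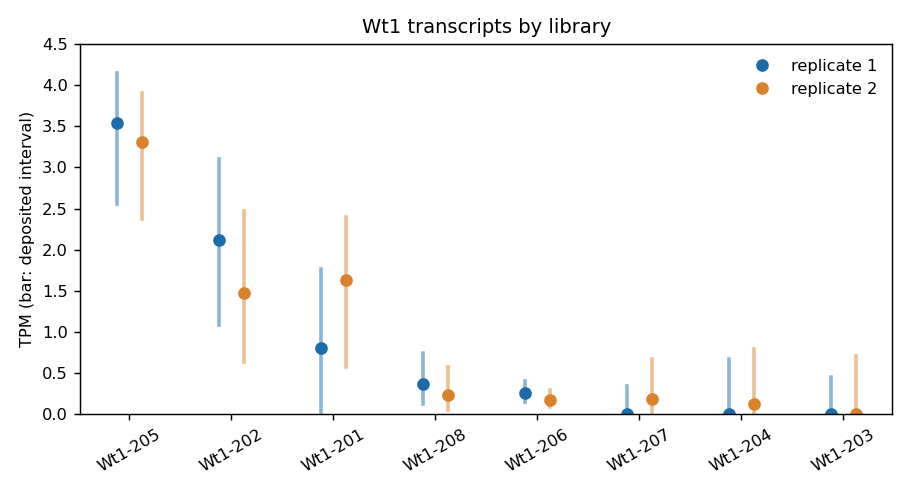
TPM of the 8 Wt1 transcripts in each library, with bars for the interval deposited with each estimate. Wt1-205 is highest in both libraries at 3.54 and 3.31 TPM, and the bars of the libraries overlap for all 8 transcripts.

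Summed over the 6 transcripts whose structure covers these choices, those with the KTS bases printed above carried 67.2% of TPM in replicate 1 and 76.3% in replicate 2, or 71.8% ± 6.47 (SD, n = 2). The ratio of KTS-containing to KTS-lacking TPM was 2.05 and 3.23. Transcripts with exon 5 carried 87.6% and 71.1%, or 79.4% ± 11.7. Transcripts with the upstream first exon carried 54.8% and 53.9%, or 54.3% ± 0.657, with the rest on the intron 1 first exon.

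These shares rest on few informative reads. If the reads were spread evenly over Wt1, 14.3 in replicate 1 and 14.9 in replicate 2 would span the junction of exons 9 and 10, where the insert lies. The annotated transcripts also tie the choices together: among those with the intron 1 first exon, the one with exon 5 lacks KTS and the one without exon 5 has it. A change in exon 5 inclusion and one in KTS use at this first exon therefore cannot be told apart in these values. No measured transcript with the upstream first exon has exon 5 without KTS, since Wt1-205, the only one with exon 5, has both. The first-exon shares are thus not independent of the splice choices either. The TPM intervals are those deposited with each estimate.

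Wt1os, the antisense gene that starts 18 nt from the Wt1 start on the other strand (chromosome 2 from 105076538 to 105126510), had 53 and 20 counts, at 1.26 TPM in replicate 1 and 0.30 TPM in replicate 2. It does not overlap the annotated span of Wt1. Its mean was below the TPM minimum for the test.

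The other genes offered less choice of transcript. Upk3b, Gpm6a, Upk1b, Lrrn4, Msln and Bnc1 had 1 measured transcript each. For Msln the annotation used for names holds 9. Rspo1 had 2, of which 1 carried 100% of its TPM in replicate 1 and 96.7% in replicate 2. Gene models also changed between annotation releases: the measured Upk3b transcript was 2346 nt against 3530 nt in the newer release, a difference that enters its TPM through length. The Wt1 transcripts had the same lengths in both.

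The genes were set beside their family relatives, 14 genes in all, of which 10 reached TPM 1 in both libraries. None of these 10 passed the test between libraries with TMM scaling, beside 11.5% of all genes tested lower and 11.0% higher. The edgeR exact test also passed none of them. Under spike-in scaling 6 of the 10 were higher in replicate 2, where the median log2 ratio of all genes tested was 0.34. Within the uroplakins, Upk3b and Upk1b stood well above the rest: Upk3a was at 2.54 and 1.95 TPM, Upk3bl at 1.43 and 1.20, Upk2 at 0.52 and 0.40, and Upk1a at 0.45 and 0.41. Upk3a, Upk2, Upk1a and Upk1b itself are known as subunits of the bladder plaque. Mslnl, the relative of Msln, was at 0.25 and 0.19 TPM.

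In other families a relative exceeded the mesothelium gene. Lrrn3 (18.4 and 18.6 TPM) and Lrrn1 (10.4 and 10.2 TPM) were above Lrrn4, with Lrrn2 below it at 2.73 and 2.60 TPM. Bnc2 was above Bnc1, at 5.42 and 6.50 TPM. Gpm6b was above Gpm6a, at 31.8 and 33.4 TPM. Egr1, a zinc finger factor with a DNA-binding domain related to that of Wt1, was at 11.0 and 10.7 TPM. In each of these pairs the library values did not overlap.

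**Figure D5:**
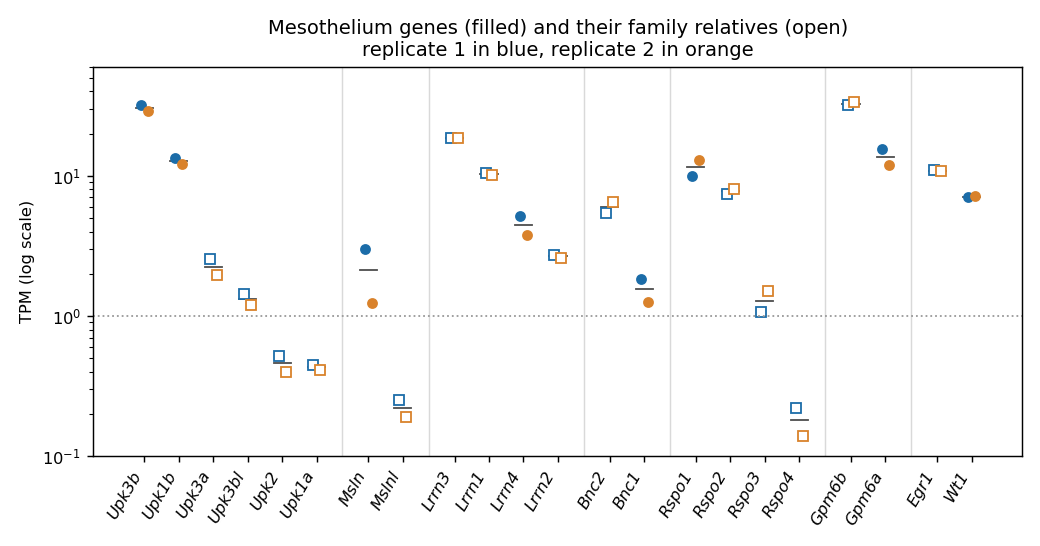
TPM on a log axis for the 8 mesothelium genes (filled) and their 14 family relatives (open), by family, with 1 point per library, a bar at the mean of both and a dotted line at TPM 1. Upk3b and Upk1b lead the uroplakins, while Lrrn4, Bnc1, Gpm6a and Wt1 lie below at least 1 relative.

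Rspo1 was the highest R-spondin, and Rspo2, known from lung mesenchyme, came next at 7.42 and 8.05 TPM, with no overlap between their library values. Rspo3 was at 1.06 and 1.5 TPM and Rspo4 at 0.22 and 0.14 TPM. All 7 genes of R-spondin reception were detected. Among the Lgr receptors Lgr6 was highest at 9.42 and 8.82 TPM, ahead of Lgr4 (3.08 and 2.78) and Lgr5 (2.58 and 1.95). The ubiquitin ligases that R-spondins hold back, Rnf43 and Znrf3, were at 14.1 and 17.3 TPM and at 14.1 and 13.5 TPM. The Wnt co-receptors were at 18.6 and 19.8 TPM for Lrp6 and at 7.34 and 9.18 TPM for Lrp5. By the exact binomial test Rnf43 and Lrp5 were higher in replicate 2 and Lgr6 was lower, none by 2-fold. Of all genes tested, 11.0% were higher and 11.5% were lower past the same test. Lgr6 reversed under spike-in scaling. The edgeR exact test passed none of the 7.

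Of 18 further genes known from mesothelium, 17 were measured and 12 reached TPM 1 in both libraries. The highest were the epithelial keratins Krt8 (164 and 161 TPM) and Krt18 (119.6 and 122 TPM), which the lung epithelium also expresses, and Nkain4 (96.2 and 111 TPM). By the exact binomial test, 3 of the 12 were lower in replicate 2 and 1, Nkain4, was higher, none by 2-fold, beside 11.5% and 11.0% of all genes tested. The edgeR exact test passed none of the 12. Their median log2 ratio was -0.05, and under spike-in scaling none was lower and 11 were higher. That scaling moved the median log2 ratio of all genes tested to 0.34, so genes in general stood higher under it. Itln1, the gene of a secreted lectin, had no counts in either library.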

How the data were processed

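Per the file headers, the authors deposited for each of 2 libraries an expected count per gene and transcript, TPM, the percent of a gene's TPM on each transcript, and posterior means, SDs and interval bounds of the estimates. The interval bounds were treated as a score, as deposited, since the files do not name their level. Per the deposited read-me files the values rest on mm10, GENCODE M4 and transcriptome alignments. The aligner, quantification program and strand setting were not given in the sources used here.

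Symbols and coordinates (1-based) came from GENCODE M21 on GRCm38 by unversioned identifier, for 42462 of 43346 mouse genes. Expected counts were rounded and scaled by TMM (edgeR 4.0.16, R 4.3.3). The 14870 genes with mean TPM of at least 1 entered an exact binomial test (two-sided) of each gene's 2 counts conditional on their sum, adjusted by Benjamini-Hochberg over all genes tested. Log2 ratios (replicate 2 over 1) had 0.5 added to each count. A 2-fold call also needed an adjusted p under 0.05. The test was checked on simulated counts. The p-values of this test, its intervals and the floors cover counting error only.

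Exon 5, the KTS insert and the first exon of each Wt1 transcript were read from the annotation, leaving out the 2 retained-intron transcripts. Named genes were the 8 genes, all Wt1 transcripts, family relatives and R-spondin receptors, Wt1os, and of other lists the 3 highest genes and those called at 2-fold. A further family relative is not reported here. The genes and lists were chosen with earlier results of these data known. Alternatives were spike-in scaling, DESeq2 1.42.0 size factors, no filter, an edgeR exact test, posterior means, TPM over mouse genes, other detection levels and leaving out a library.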

Additional observations from a re-analysis of the deposited data

How the results depend on the processing

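DESeq2 size factors changed no direction or call among the 11 results they were run for. Under spike-in scaling 290 genes differed by 2-fold, 70% of them upward in replicate 2 (31.4% with TMM), and 0 of the 8 mesothelium genes did. The log2 ratios of Wt1 (0.27, adjusted p = 0.0127), Upk3b (0.15, adjusted p = 0.00752) and Upk1b (0.13, adjusted p = 0.203) reversed sign, and Lrrn4, Bnc1 and Gpm6a no longer passed the exact binomial test. This scaling moves all log2 ratios by the same amount, with the median of all genes tested at 0.34 against -0.0016 with TMM. What made the spike-in share differ between the libraries was not tested. With no filter on low values 538 of 24179 genes differed, as more genes were tested. The edgeR exact test, which adds variation beyond counting estimated from the same 2 libraries, found 106, and 1 mesothelium gene past its adjusted p. At a detection level of TPM 5, 5 of the 8 genes counted as detected. The share of Wt1 with the upstream first exon was 57.2% by posterior mean TPM and 59.8% by expected count, the latter not divided by length. The mean Wt1-205 share, 48.2% by TPM, was 43.6% and 56.1% by the same measures. Wt1 was at 7.40 by posterior mean TPM. With TPM over mouse genes, Wt1, Upk3b and Upk1b were at 7.88, 33.7 and 14.2, beyond the SD of the 2 libraries. The other 5 genes stayed within that SD. The alternatives for the exon 5 and first-exon shares, for the KTS share by expected count, and for the number of mesothelium genes past the adjusted p were added after seeing the data. No paired analysis was possible because the series has 1 group.

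Few reads lay behind the Wt1 splice shares and behind Msln and Bnc1. With 2 libraries, variation between embryos is poorly known.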

Other observations

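Genes known as partners or targets of Wt1 were also read, 17 in all, of which 14 reached TPM 1 in both libraries. The highest were Ctnnb1 (435 and 447 TPM), Tcf21 (186 and 182 TPM) and Snai2 (166 and 191 TPM), which the lung expresses broadly. By the exact binomial test with Benjamini-Hochberg adjustment 4 of the 14 were lower in replicate 2 and 2 were higher, none by 2-fold, beside 11.5% and 11.0% of all genes tested. The edgeR exact test passed none, and under spike-in scaling none was lower and 13 were higher. That scaling moved the median log2 ratio of all genes tested to 0.34. Wtip, which codes for a Wt1-interacting protein and was picked out after its values were seen, was at 5.35 TPM in replicate 1 and at 8.17 in replicate 2 (log2 ratio 0.54, adjusted p = 0.000489 by the exact binomial test), but did not pass the edgeR exact test (adjusted p = 0.945).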
